A study of Homo sapiens with 12 samples.

Results

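Differences between Axl-deficient and Axl-proficient liver cancer cells were sought that held in untreated control cells and in cells resistant to Regorafenib (Rego) alike. All 12 libraries of the series entered 1 fit, 6 from SNU449-Axl- cells against 6 from SNU449 cells, with Rego state and replicate number in the model. Only genes whose difference had the same sign in control and in resistant cells were kept, and these were 7883 of 15601 genes (50.5%). Of them, 414 were called at an adjusted p below 0.05 (limma, Benjamini-Hochberg adjustment over all genes), and these are named shared genes here.

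Axl is a receptor tyrosine kinase of the TAM family, together with Tyro3 and MerTK, and is activated by the secreted ligand Gas6. It signals through the PI3K/AKT and MAPK pathways and is known in hepatocellular carcinoma for its link to epithelial to mesenchymal transition and to tolerance against tyrosine kinase inhibitors. Rego is an oral inhibitor of several kinases, among them receptors for VEGF, PDGF and FGF as well as RAF kinases.

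SNU449 is a human hepatocellular carcinoma line with a mesenchymal-like phenotype, and SNU449-Axl- cells (AxlKO in the sample titles) are its derivative in which Axl was disrupted by CRISPR/Cas9. The 4 groups were wt control, wt Rego-resistant, AxlKO control and AxlKO Rego-resistant cells, with 3 libraries each. Resistant cells of both backgrounds had been adapted from 50% of the IC50 in steps of 50% to 2 times the IC50 and were kept under drug, whereas control cells were naive. The 3 libraries of a group are technical triplicates of 1 cell population, so that 6 against 6 libraries stand for 2 against 2 populations, and p-values measure the spread between libraries only. Both resistant populations were derived from their own control population. Whether the AxlKO cells are 1 clone is not given in the sources used here, and differences due to Axl cannot be told apart from other differences between the 2 cell lines.

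Levels are given as log2 of the deposited library values, which the authors had made from variance-stabilized counts and which compress differences of weakly expressed genes. The depth per library is unknown, and the authors' mean normalized counts, with a median of 57.1 per gene, were used as the measure of abundance. As a check of the cell type, the mesenchymal genes VIM, CDH2 and ZEB1 were at 13.8 to 14.7, 7.71 to 9.60 and 6.78 to 7.78 over the 12 libraries. FN1, a further mesenchymal gene, varied more, from 8.39 to 12.24. Its AxlKO minus wt difference was -2.25 in control and 2.47 in resistant cells, in opposite directions. The hepatocyte factor FOXA2 was present at 8.25 to 9.31, while APOA1 stayed between 4.25 and 4.95, near the lowest values of the table. PTPRC, a leukocyte marker, was at 4.25 to 4.95. ALB, TTR, HNF4A, CDH1 and EPCAM were looked for as well but had no single entry among the genes tested, so that no level is given for them. The 13 more abundant of the 32 spike-in RNAs had library medians of 7.09 to 7.67 in wt and of 6.54 to 7.24 in AxlKO libraries, and the part of this difference in the results below was measured by centring on them.

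Over all genes, the Axl differences in control and in resistant cells were almost unrelated. Pearson's r over the genes was 0.0252 and Spearman's rho 0.0171, and among the 8189 genes with a mean normalized count of at least 50 these were 0.0147 and 0.0103, with 50.8% of the genes having the same sign. These values describe the genes, which are no independent replicates of each other. The 414 shared genes were 2.65% of all genes, 260 of them higher (1.67%) and 154 lower (0.987%) in AxlKO cells. This count depended on the model and on single libraries: without the replicate block it was 1057, and with 1 library left out it was 205 (without wt control 2) to 342 (without wt control 3). None of the genes called over the 12 libraries had opposite signs, which a fit without an interaction favours by construction, since opposite differences cancel. The median difference was 0.79 for the higher and -0.71 for the lower shared genes, a factor of 1.72 and 1.64. Spike-in centring of the libraries moved the median of all genes from 0.01 to 0.43 and the calls to 3126, of which 3108 were higher and 18 lower, so that directions are meant relative to the bulk of the genes.

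The contrasts within each state gave a stricter count, since a call was needed in both. These 2 contrasts share no library. They come from 1 fit with a common estimate of spread, so that the 2 calls are not independent. In control cells 1160 genes (7.44%) were called and in resistant cells 679 (4.35%), and 141 (0.904%) were called in both. Of these 141, 78 had the same sign (0.5% of all genes), 64 higher (0.41%) and 14 lower (0.0897%) in AxlKO cells, and 63 had opposite signs (0.404%). All 78 were among the 414 shared genes. A further 168 shared genes (40.6%) were called in control cells only, 97 in resistant cells only and 71 in neither state alone. Without regard to calls, the libraries of the backgrounds did not overlap in either state in the same direction in 5.37% of all genes, 3.11% higher and 2.26% lower in AxlKO cells, and in opposite directions in 4.63%. In 139 of the 260 higher shared genes all 6 AxlKO libraries lay above all 6 wt libraries, as they did in 1.64% of all genes. In 99 of the 154 lower shared genes they lay below, against 1.29% of all genes. The shared genes had been called on these same libraries, so this separation follows in part from the selection and is no separate support. With the means of the 4 populations as the unit in place of libraries, 1 gene, AXL, was called.

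**Figure D1:**
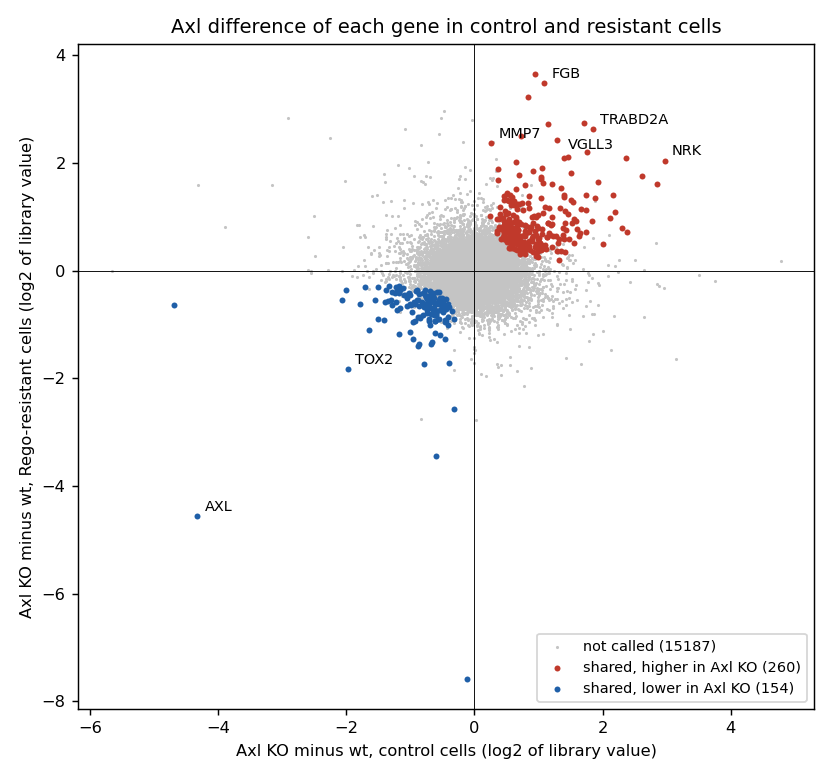
Each point is 1 of 15601 genes, with the AxlKO minus wt difference in control cells on the x axis and in Rego-resistant cells on the y axis, both on the log2 scale of the library values. The 260 shared genes that were higher (red) and the 154 that were lower in AxlKO cells (blue) lie in the upper right and the lower left corner, AXL stands far down on the left, and the grey cloud of other genes shows no slope (r of 0.0252).

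AXL itself (ENSG00000167601.12, chr19:41219223-41261766, plus strand of GRCh38) had the smallest adjusted p over the 12 libraries. Its level was 9.51, 9.88 and 9.48 in wt control libraries and 10.27, 9.67 and 10.31 in wt resistant libraries. In AxlKO cells it was 5.13, 5.73 and 5.04 in control and 5.64, 5.25 and 5.70 in resistant libraries. No library of either AxlKO group came near a wt library. The difference was -4.32 in control cells (standard error 0.24, adjusted p = 2.23e-09) and -4.55 in resistant cells (standard error 0.24, adjusted p = 1.35e-09) in limma with Benjamini-Hochberg adjustment. In mean normalized counts, solved from the authors' means of the tables, AXL had 756 and 1070 in wt control and resistant cells and 24.6 and 61.6 in AxlKO cells. Such solved counts are uncertain at low levels. For NRK in wt resistant cells the same solution gave a negative count, -4.6. The values of 24.6 and 61.6 are therefore not read as a difference between the AxlKO groups.

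The partners of Axl did not share this pattern. TYRO3 was at 6.31 to 6.39 on average in all 4 groups, with a difference over the 12 libraries of -0.04 (standard error 0.15, adjusted p = 0.93, limma). MERTK was weakly expressed, with group means of 4.87 to 5.18 and a difference of 0.18 (adjusted p = 0.54). The ligand gene PROS1 differed by 0.26 (adjusted p = 0.43, limma) and lies on chromosome 3, among neighbours of which 17 of 20 had higher levels in AxlKO cells. With spike-in centring its difference was 0.68 and was called (adjusted p = 0.0352, limma).

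GAS6, the main ligand of Axl, differed in opposite directions. It was at 6.44, 6.39 and 5.91 in wt control and at 6.97, 7.35 and 6.87 in AxlKO control libraries, without overlap. In resistant cells it was at 7.03, 6.73 and 7.24 in wt and at 6.38, 6.36 and 6.81 in AxlKO libraries, which overlapped. The difference was 0.81 in control cells (adjusted p = 0.034, limma) and -0.49 in resistant cells (adjusted p = 0.26), and it is therefore no shared gene.

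Of the ErbB receptors, which form the family of EGFR and its relatives, none was called in the fit that defines the shared genes. EGFR differed by -0.01 over the 12 libraries (standard error 0.17, adjusted p = 0.99, limma) and ERBB2 by -0.17 (standard error 0.13, adjusted p = 0.56). ERBB3 differed by 0.28 in control and 0.57 in resistant cells, and by 0.43 over all libraries (standard error 0.14, adjusted p = 0.11, limma). It was called without the replicate block (adjusted p = 0.0319, limma) and with spike-in centring (adjusted p = 0.0078). ERBB4 had opposite signs, with 0.43 in control and -0.58 in resistant cells. In all, 0 of 15 ErbB receptors, ligands and feedback inhibitors were called with the same sign in limma. Of these 15, 3 had an unadjusted p below 0.05 with the same sign (limma), as had 2429 of all 15601 genes.

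Of the genes called in both states with libraries that did not overlap in either, 59 were higher and 13 lower in AxlKO cells. The 12 of each direction with the largest smaller difference of the 2 states are described here. The 12 higher genes had differences of 1.40 to 2.51 over the 12 libraries, with adjusted p of at most 0.000438 (limma, Benjamini-Hochberg adjustment). In 10 of them all 6 AxlKO libraries were above all 6 wt libraries.

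VGLL3 (ENSG00000206538.9, chr3:86876388-86991149, minus strand), a cofactor of TEAD transcription factors, headed this list. It was at 5.09, 5.04 and 4.39 in wt control and at 4.46, 4.39 and 4.39 in wt resistant libraries. In AxlKO cells it was at 7.03, 7.29 and 7.29 in control and 6.43, 6.23 and 6.87 in resistant libraries. Every AxlKO library thus stood above every wt library, by 2.36 in control (standard error 0.23, adjusted p = 3.3e-06) and by 2.09 in resistant cells (standard error 0.23, adjusted p = 2.1e-05, limma). Of its 20 neighbours on chromosome 3, 17 were also higher in AxlKO cells, with medians of 0.23 and 0.26.

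NRK, a kinase of the germinal center kinase family, was at 4.52 to 5.64 in wt control and 4.39 to 5.21 in wt resistant libraries. In AxlKO cells it was at 7.88 to 7.97 and 6.78 to 7.05. TRABD2A, a membrane protease that inactivates Wnt ligands, was at 4.52 to 5.13 in the 6 wt and at 6.78 to 7.62 in the 6 AxlKO libraries. These genes were near the lowest values of the table in SNU449 cells and clearly detected in SNU449-Axl- cells of both states. The same held for SLC28A2, a sodium-coupled nucleoside transporter, with differences of 2.62 and 1.76, and for SUN3, a protein of the nuclear envelope, with 1.92 and 1.65.

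RDH10 and CYP24A1 act on retinol and vitamin D. RDH10, an enzyme of retinoic acid synthesis, differed by 1.75 in control and 2.21 in resistant cells. CYP24A1, the hydroxylase that inactivates vitamin D, was at 6.94 to 7.56 in wt control, 5.86 to 6.63 in wt resistant, 8.44 to 9.48 in AxlKO control and 8.49 to 9.32 in AxlKO resistant libraries. It lies on chromosome 20, where only 4 of its 20 neighbours were higher in AxlKO cells.

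Secreted proteins were among the more abundant of these genes. SERPINE2, an inhibitor of serine proteases, was at 10.40, 10.64 and 11.50 in wt control and at 12.23, 12.36 and 12.35 in AxlKO control libraries. In resistant cells it was at 10.16, 9.86 and 9.84 in wt and 12.39, 12.33 and 11.49 in AxlKO libraries. The groups did not overlap within a state, although the lowest AxlKO resistant library was level with the highest wt control library. IL18, a cytokine of the interleukin-1 family, was at 6.6 to 6.88 in all wt and at 8.11 to 8.68 in all AxlKO libraries. Its difference was 1.51 in control (adjusted p = 9.6e-05) and 1.82 in resistant cells (adjusted p = 2.1e-05, limma).

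The remaining members were PARM1, a mucin-like membrane protein (1.39 and 2.10), the antisense transcript SLC7A11-AS1 (1.74 and 1.42) and S100A4 (1.40 and 1.41). Reads of SLC7A11-AS1 can be assigned to it only by strand. S100A4, a calcium-binding protein that marks mesenchymal cells, was at 4.95 to 5.67 in wt control, 7.04 to 7.28 in wt resistant, 6.46 to 7.19 in AxlKO control and 8.43 to 8.63 in AxlKO resistant libraries. It was thus higher without Axl by the same amount in both states and higher in resistant cells of both backgrounds, by 1.77 (adjusted p = 3.7e-05, limma).

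The 11 genes that followed AXL among the lower genes differed by -1.90 to -0.70 over the 12 libraries, with adjusted p of at most 0.0155 (limma). With AXL included, all 6 AxlKO libraries were below all 6 wt libraries in 10 of the 12. TOX2 (ENSG00000124191.18, chr20:43914852-44069616, plus strand), a transcription factor with an HMG box, was at 6.94, 7.29 and 7.29 in wt control and 6.39, 6.19 and 6.34 in wt resistant libraries. In AxlKO cells it was at 5.32, 5.29 and 5.00 in control and 4.52, 4.39 and 4.52 in resistant libraries. The groups were ordered without overlap, and the difference was -1.97 in control (adjusted p = 4e-06) and -1.83 in resistant cells (adjusted p = 1.9e-05, limma). Only 2 of its 20 neighbours were higher in AxlKO cells, and their medians were -0.25 and -0.29.

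Chromatin and transcription were further represented by ASF1A, a chaperone of histones H3 and H4 (-1.0 in control and -1.14 in resistant cells), and by HOXA10, a homeobox factor (-0.79 and -0.82). Among signaling genes were RIPK4, a kinase of keratinocyte differentiation, and MDK, a heparin-binding growth factor. RIPK4 was at 6.64 to 7.33 in wt control, 5.36 to 5.64 in AxlKO control, 8.09 to 8.30 in wt resistant and 6.97 to 7.53 in AxlKO resistant libraries. It was lower without Axl in either state, whereas resistant cells of both backgrounds had more of it. MDK was weakly expressed and differed by -0.93 in both states.

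The ubiquitin ligase TRIM2 (-0.84 and -0.87) and YPEL5 (-0.74 and -0.73) have functions in protein turnover. The mitochondrial enzymes RARS2, which charges arginine tRNA, and ME2, a malic enzyme, differed by -0.70 and -0.93 and by -0.71 and -0.69. CPNE1, a calcium-dependent phospholipid-binding protein, was at 8.46 to 9.09 in wt and at 7.74 to 8.21 in AxlKO libraries and differed by -0.95 in both states. It lies on chromosome 20, where 1 of its 20 neighbours was higher in AxlKO cells. After spike-in centring, CPNE1, MDK, TRIM2, HOXA10, YPEL5, RARS2 and ME2 kept the direction but were no longer called, with adjusted p of 0.0886 to 0.339 (limma), while AXL, TOX2, ASF1A, RIPK4 and the 12 higher genes remained called.

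**Figure D2:**
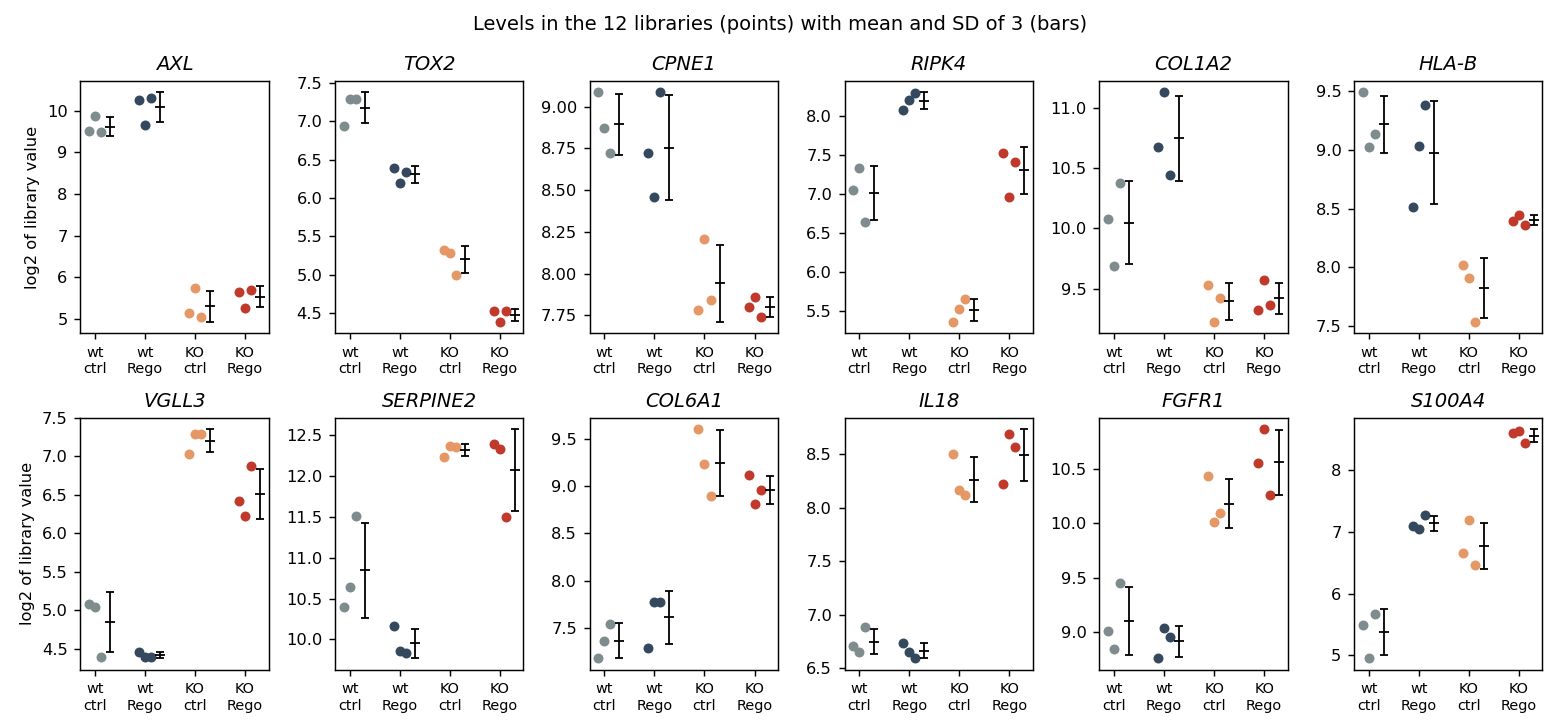
Log2 of the library value of 12 shared genes, with 1 point per library for wt control, wt Rego-resistant, AxlKO control and AxlKO Rego-resistant cells and the mean and SD of 3 libraries beside them. The upper row holds genes lower and the lower row genes higher in AxlKO cells, and in every panel the AxlKO libraries are apart from the wt libraries of the same state.

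The stretches of 250 bases upstream of the RefSeq start sites of VGLL3 and TOX2, the genes with the largest smaller difference in each direction besides AXL, are shown to give the sequence context of this pair. They were taken from RefSeq promoters on GRCh38.p14 and written 5′ to 3′ on the strand of the gene. The stretch of VGLL3 is chr3:86991150-86991399 on the minus strand, and that of TOX2 is chr20:43915880-43916129 on the plus strand. The files place the TOX2 gene from base 43914852 to base 44069616 of chromosome 20, so that this stretch lies inside the gene as annotated there, whereas that of VGLL3 lies directly before the annotated gene. Capitals mark letters of the TEAD motif GGAATG on either strand, and the AP-1 motif TGANTCA was searched as well.
VGLL3: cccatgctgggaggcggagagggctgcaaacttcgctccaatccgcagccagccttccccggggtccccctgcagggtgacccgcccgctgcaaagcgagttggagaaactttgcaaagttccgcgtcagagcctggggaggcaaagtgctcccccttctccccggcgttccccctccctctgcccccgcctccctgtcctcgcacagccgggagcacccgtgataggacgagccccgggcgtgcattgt
TOX2: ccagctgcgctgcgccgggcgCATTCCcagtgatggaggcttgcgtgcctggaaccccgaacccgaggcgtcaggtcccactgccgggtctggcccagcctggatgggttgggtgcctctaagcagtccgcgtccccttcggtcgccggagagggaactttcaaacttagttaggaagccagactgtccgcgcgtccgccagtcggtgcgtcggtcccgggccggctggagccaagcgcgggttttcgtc
The stretch of TOX2 held 1 match to the TEAD letters, and none of these letters was found in that of VGLL3. A promoter was matched for 172 of the 260 higher and 128 of the 154 lower shared genes. The TEAD letters were in 8.14% of the higher and 13.3% of the lower ones, against 9.59% of the 10800 matched promoters of all genes, and the AP-1 letters were in 3.49%, 4.69% and 3.86%. These are counts of letters and carry no test.

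Of 674 genes in 28 lists of pathways and cell type markers, 38 (5.64%) were shared genes, 32 higher and 6 lower, against 2.65% of all genes. These lists had been written with earlier results of these data known. At least 1 shared gene was found in 19 lists and none in 9.

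Among receptor tyrosine kinases outside the TAM and ErbB families, 2 of 23 were shared (8.7%, against 2.65% of all genes), both higher in AxlKO cells. FGFR1, a receptor for fibroblast growth factors, was at 9.01, 8.85 and 9.45 in wt control and 8.76, 9.04 and 8.95 in wt resistant libraries. In AxlKO cells it was at 10.44, 10.01 and 10.10 in control and 10.55, 10.86 and 10.26 in resistant libraries. All 6 AxlKO libraries lay above all wt libraries, with a difference of 1.08 in control (adjusted p = 0.0042) and 1.64 in resistant cells (adjusted p = 0.00015, limma). FGFR1 lies on chromosome 8, and 17 of its 20 neighbours were also higher in AxlKO cells, with medians of 0.20 and 0.38. ROR1, a receptor of Wnt5a, differed by 1.13 in control and 0.63 in resistant cells and was called over all libraries (adjusted p = 0.039, limma).

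In the PI3K, AKT and FOXO list, 2 of 25 genes were shared (8.0%, against 2.65% of all genes), both higher. RICTOR, the defining subunit of mTORC2, differed by 0.73 and 0.87, with all AxlKO libraries above all wt libraries. It lies on chromosome 5 beside genes with medians of 0.53 and 0.27. IRS2, an adaptor of the insulin receptor, differed by 0.69 and 0.56. The list as a whole had a median of -0.05, against 0.01 for all genes. No gene was called with the same sign in limma among 30 MAPK output and feedback genes (3 with an unadjusted p below 0.05) and among 21 JAK, STAT and SOCS genes (6). Of all 15601 genes, 2429 had such an unadjusted p with the same sign.

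Epithelial genes were represented by 3 of 16 members (18.8%, against 2.65% of all genes), all higher in AxlKO cells, and the median of the list was 0.36. KRT8, a keratin of simple epithelia, was at 7.05 to 7.75 in the 6 wt libraries, 8.11 to 8.32 in AxlKO control and 8.78 to 9.08 in AxlKO resistant libraries. CLDN1, a tight junction protein, differed by 1.47 in control (adjusted p = 0.0011, limma) and 0.59 in resistant cells (adjusted p = 0.2). TJP1, a scaffold of tight junctions, differed by 0.40 in control (adjusted p = 0.27, limma) and 1.19 in resistant cells (adjusted p = 0.002). Of 20 neighbours each, 15 were higher in AxlKO cells around CLDN1 on chromosome 3, 15 around TJP1 on chromosome 15 and 13 around KRT8. Of the EMT factors and mesenchymal markers 1 of 21 (4.76%), S100A4, was called, with a list median of 0.07. Among YAP and TEAD targets, AXL was lower and IGFBP3 and DOCK5 were higher, 3 of 29 in all (10.3%). The median of that list was 0.05 in control and -0.29 in resistant cells.

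Of collagens and collagen-processing enzymes, 4 of 33 were shared (12.1%, against 2.65% of all genes), 2 in each direction. COL6A1, a chain of the microfibrillar collagen VI, was at 7.18, 7.37 and 7.55 in wt control and 7.29, 7.78 and 7.78 in wt resistant libraries. In AxlKO cells it was at 9.60, 9.23 and 8.90 in control and 9.11, 8.81 and 8.95 in resistant libraries. No AxlKO library reached down to a wt library, and the difference was 1.88 in control (adjusted p = 3.1e-05) and 1.35 in resistant cells (adjusted p = 0.0012, limma).

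COL1A2, a chain of the fibrillar collagen I, showed the opposite. It was at 9.69 to 10.38 in wt control, 10.44 to 11.12 in wt resistant, 9.23 to 9.53 in AxlKO control and 9.33 to 9.57 in AxlKO resistant libraries, all AxlKO libraries being below all wt libraries. LOXL1, an enzyme that crosslinks elastin and collagen, was lower as well, with differences of -0.54 and -1.19. PLOD2, a lysyl hydroxylase of collagen, was higher by 1.40 in control and 0.58 in resistant cells and lies on chromosome 3, where all 20 of its neighbours were higher. Beyond these, 1 of 26 laminins and integrins (ITGB2, 0.87 and 0.38) and 2 of 28 matrix proteases and inhibitors (SERPINE2 and MMP7) were called. These were 3.85% and 7.14%, against 2.65% of all genes.

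By number, cytokines and chemokines formed the list with the most shared genes, 5 of 31 (16.1%, against 2.65% of all genes), all higher in AxlKO cells. By share, other lists had more, such as metallothioneins and S100 proteins with 28.6%. Besides IL18 the shared cytokines and chemokines were CXCL5, CCL20, IL1B and CXCL1, the last of which the rule for named genes had left out. CXCL5, an attractant of neutrophils, was at 4.0 to 4.86 in wt control, 5.52 to 6.02 in AxlKO control, 5.55 to 6.09 in wt resistant and 6.15 to 7.29 in AxlKO resistant libraries. CCL20, a chemokine, and IL1B, the cytokine interleukin-1β, were close to the lowest values of the table, yet all 6 AxlKO libraries were above all 6 wt libraries, with 0.66 and 0.83 for CCL20 and 0.55 and 0.86 for IL1B. The list median was 0.13.

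Few interferon and antigen presentation genes were shared. Of 44 interferon-stimulated genes 2 were called (4.55%, against 2.65% of all genes), and the list had a median difference of -0.35 in control and of 0.26 in resistant cells, with 14 and 4 members called within the states. The antiviral GTPase MX1 was lower (-0.56 and -0.89) and IFIH1, a sensor of double-stranded RNA, was higher (1.02 and 0.46). HLA-B, a class I molecule, was at 9.03 to 9.49 in wt control and 7.54 to 8.02 in AxlKO control libraries. In resistant cells it was at 8.52 to 9.38 and 8.36 to 8.45, so that the groups lay close together there, and the differences were -1.39 (adjusted p = 0.00086, limma) and -0.57 (adjusted p = 0.17). The class II gene HLA-DRB1 was weakly expressed and higher by 0.36 and 0.96, which makes 2 of 24 for this list (8.33%). HLA genes resemble each other, and reads may be divided among them.

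Genes of liver identity and plasma proteins were called in 3 of 15 members, all higher, with a list median of 0.44. The neighbouring fibrinogen genes FGG and FGB, which lie 31.3 kb apart on chromosome 4, differed by 1.29 and 1.09 in control and by 2.43 and 3.49 in resistant cells. FGG was at 3.81 to 4.95 in all wt, 5.39 to 5.93 in AxlKO control and 6.51 to 7.74 in AxlKO resistant libraries. AFP, the fetal counterpart of albumin, was at 4.32 to 4.75 in wt and 4.86 to 5.29 in AxlKO libraries, a small difference at the lower end of the scale with a mean normalized count of 4.26.

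Among metallothioneins and S100 proteins, 4 of 14 were called and higher (28.6%, against 2.65% of all genes), namely MT1F, S100A4, S100A6 and S100A3. The list median was 0.30. S100A6 was abundant, at 11.47 to 11.61 in wt control, 12.75 to 12.98 in AxlKO control, 12.83 to 13 in wt resistant and 13.39 to 13.61 in AxlKO resistant libraries. The 3 S100 genes lie side by side on chromosome 1. S100A3 lies within the span of S100A4 on the same strand, and their reads may not be fully separable.

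The remaining lists held 1 shared gene each, 2.63% to 3.45% of their members, close to the 2.65% of all genes. These were CDKN1C, an inhibitor of cyclin-dependent kinases, with differences of -0.65 and -0.69 (1 of 38 cell cycle genes), the glucose transporter SLC2A3 (1 of 30 glycolysis and hypoxia genes) and MANF, a secreted protein of the endoplasmic reticulum (1 of 29 ATF4 and unfolded protein response genes). HMOX1, which degrades heme, was higher by 1.28 and 0.65 (1 of 30 NRF2 targets and antioxidants). The NRF2 list as a whole had opposite medians, -0.50 in control and 0.55 in resistant cells, with 10 and 9 members called within the states. ABCB1, the efflux pump P-glycoprotein, was at 5.09 to 6.0 in wt control, 7.03 to 7.47 in AxlKO control, 6.67 to 7.38 in wt resistant and 7.17 to 8.34 in AxlKO resistant libraries (1 of 32 drug transporters and drug-metabolizing enzymes). The groups of ABCB1 were apart in control cells and overlapped in resistant cells.

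No shared gene was called by limma among 34 genes of the TGF-beta and BMP pathway (8 with an unadjusted p below 0.05 and the same sign), 33 Wnt and Notch genes (7), 23 p53 targets (6), 18 BCL2 family members (1), 29 genes of cholesterol and fatty acid synthesis (7) and 4 leukocyte and endothelial markers (0). The same count over all 15601 genes was 2429.

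**Figure D3:**
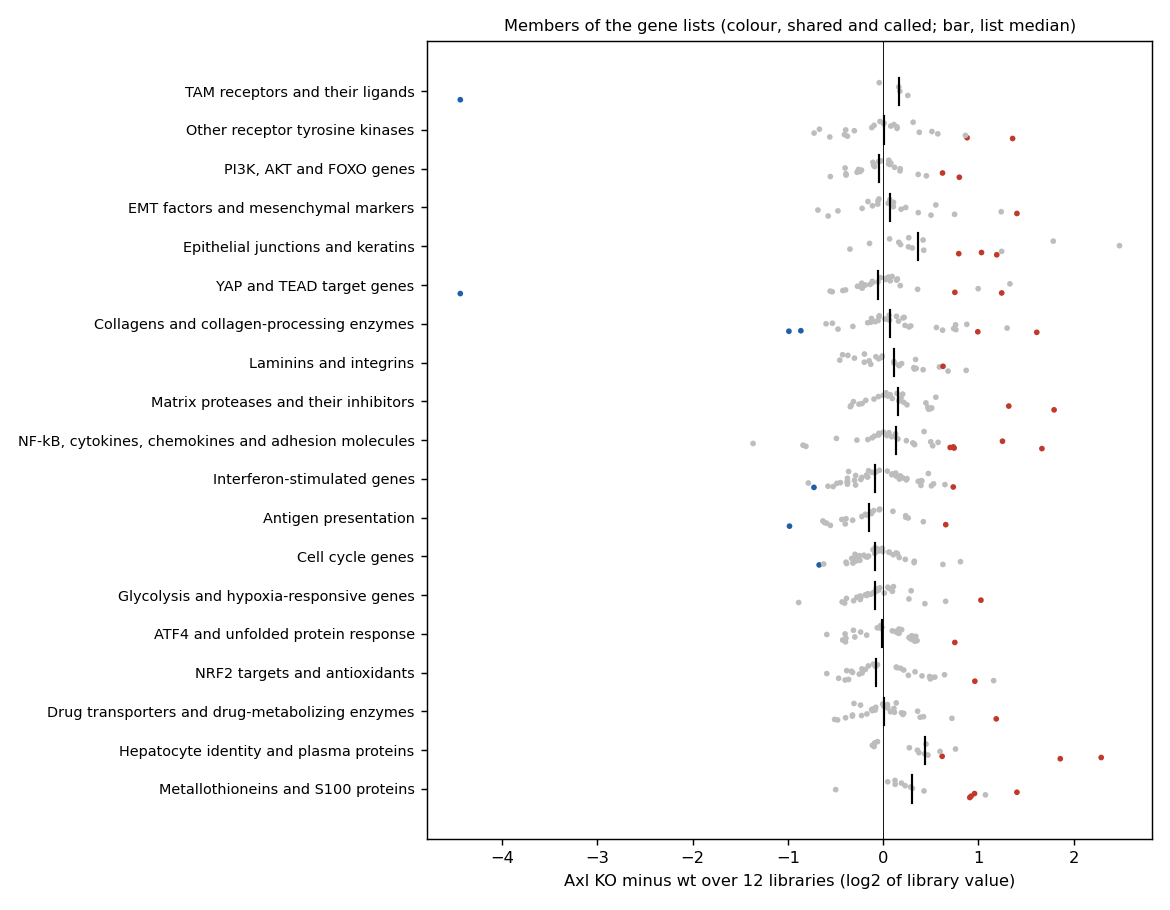
Each row is 1 of the 19 lists with a shared gene, each point a member placed by its AxlKO minus wt difference over the 12 libraries on the log2 scale, and the bar is the list median. Shared genes that were higher (red) stand mostly to the right, AXL is the blue point at -4.44 in both lists that hold it, and list medians stay between -0.15 and 0.44.

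The shared genes were unevenly distributed over the chromosomes. Chromosome 3 held 63 of them among 873 genes (7.22%, against 2.65% of all genes), and all 63 were higher in AxlKO cells, by 0.50 to 2.23 with a median of 0.67. The 18 lower shared genes of chromosome 20 made up most of its 21, and chromosome 8 had 29 higher and 3 lower among 559 genes. On chromosome 16, 28 of 32 were lower, and on chromosome 6, 19 of 23. The 23 of chromosome 6 were 2.88% of its 800 genes, near the share of all genes. Shared genes that were higher on chromosomes 3 and 8 or lower on 6, 16 and 20 were 157 in number, 37.9% of the 414. These chromosomes hold 3302 of the 15601 genes. Chromosomes and directions had been chosen after their counts were seen, so that an excess was built in.

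On chromosomes 3 and 20 the difference was not limited to the shared genes. The median difference over all genes of chromosome 3 was 0.27 in control and 0.20 in resistant cells, a factor of 1.21 and 1.15, and 60.8% of its genes were higher in both states, against 26.5% of all genes. Along chromosome 3, all 19 windows of 10 Mb with at least 15 genes had a median above 0 in both states, whereas 92 of 284 windows of the genome did. On chromosome 20 the medians were -0.23 and -0.20, 56.8% of the genes were lower in both states, against 24.0% of all genes, and all 7 windows were negative in both. The windows of chromosome 6 were negative in both states in 14 of 16.

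On chromosome 16 the pattern was confined to its end beyond 60 Mb among the windows examined. All 28 lower shared genes were among the 222 genes there, which had medians of -0.25 in control and -0.22 in resistant cells. The 448 genes before that point had medians of -0.01 and -0.04 and held 4 shared genes, all higher. On chromosome 5 the windows from 30 to 50 Mb held 13 shared genes, all higher, with medians of 0.49 and 0.50 in control and 0.27 and 0.22 in resistant cells.

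The single libraries showed the same, as deviations from the mean of all 12. The chromosome 3 median was -0.15 to -0.10 in the 6 wt libraries and 0.07 to 0.17 in the 6 AxlKO libraries. For chromosome 20 it was 0.07 to 0.12 and -0.14 to -0.07, and for chromosome 8 -0.13 to -0.01 and 0.03 to 0.13. Wt and AxlKO libraries were apart on 6 of 24 chromosomes (1, 3, 8 and the mitochondrial one higher, 6 and 20 lower in AxlKO). An exact permutation test of the library medians within Rego states, two-sided with 400 regroupings, gave p = 0.005, the smallest it can give, for 8 of the 24 chromosomes (1, 3, 6, 8, 16, 17, 20 and the mitochondrial one), with an adjusted p of 0.015. Chromosome 17 was among them with a difference of 0.05 and overlapping libraries, so this p does not set chromosomes 3 and 20 apart from the others. Adjusted p were below 0.05 for 10 chromosomes, with differences between -0.21 and 0.30. The regroupings exchange libraries that are technical triplicates of a population. These p-values therefore measure the spread between libraries only and do not extend to other populations of either background.

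After each gene was centred on the median of its chromosome in each library, 257 genes were called with the same sign, 162 higher and 95 lower, and 225 of the 414 remained. Chromosome 3 then had 5 higher and 3 lower genes, chromosome 20 had 7 and 3, chromosome 8 had 14 and 9 and chromosome 16 had 6 and 9. The 12 higher and 12 lower genes of largest difference all remained called. DNA copy number was not analysed here, and its part in these values was not tested.

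**Figure D4:**
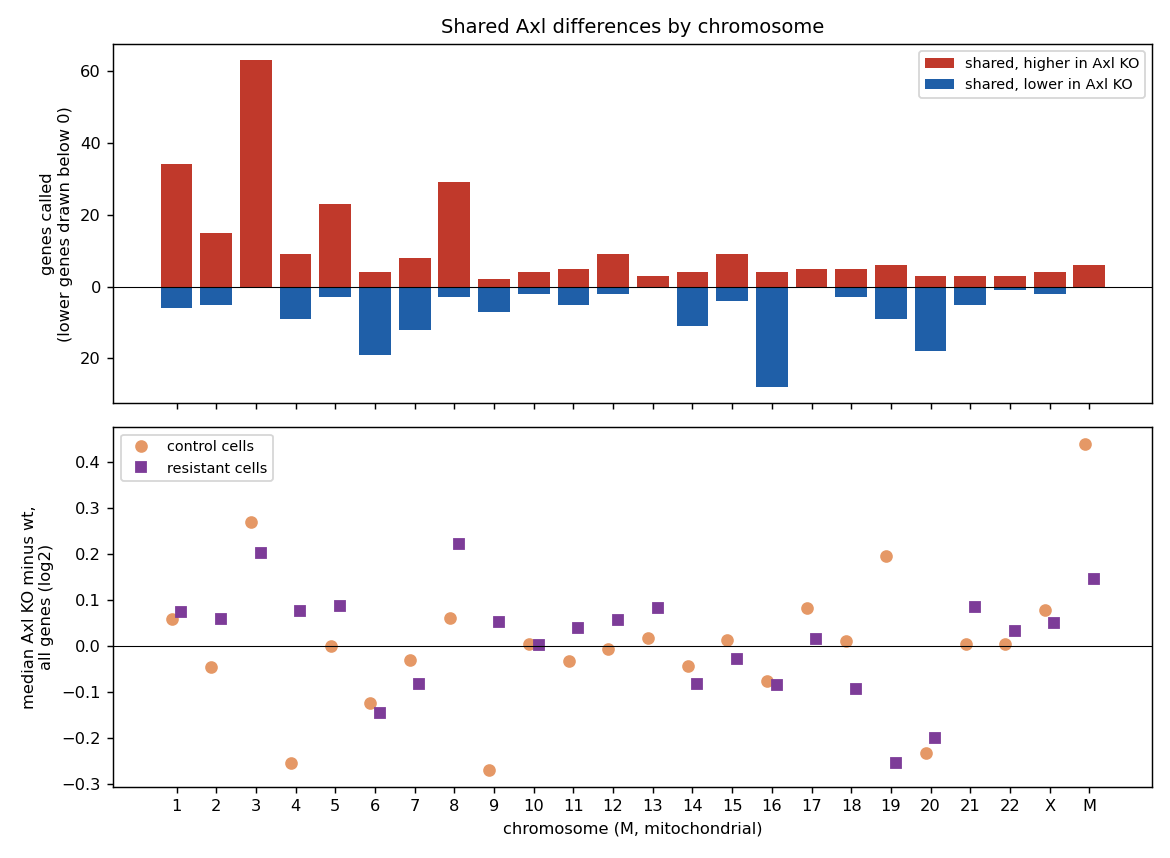
The upper panel gives the number of shared genes per chromosome, higher in AxlKO cells above and lower below 0, and the lower panel the median AxlKO minus wt difference over all genes of each chromosome on the log2 scale, in control (circles) and resistant cells (squares). Chromosome 3 stands out with 63 higher genes and no lower one, and its medians, like those of chromosome 20 in the other direction, are alike in both states.

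**Figure D5:**
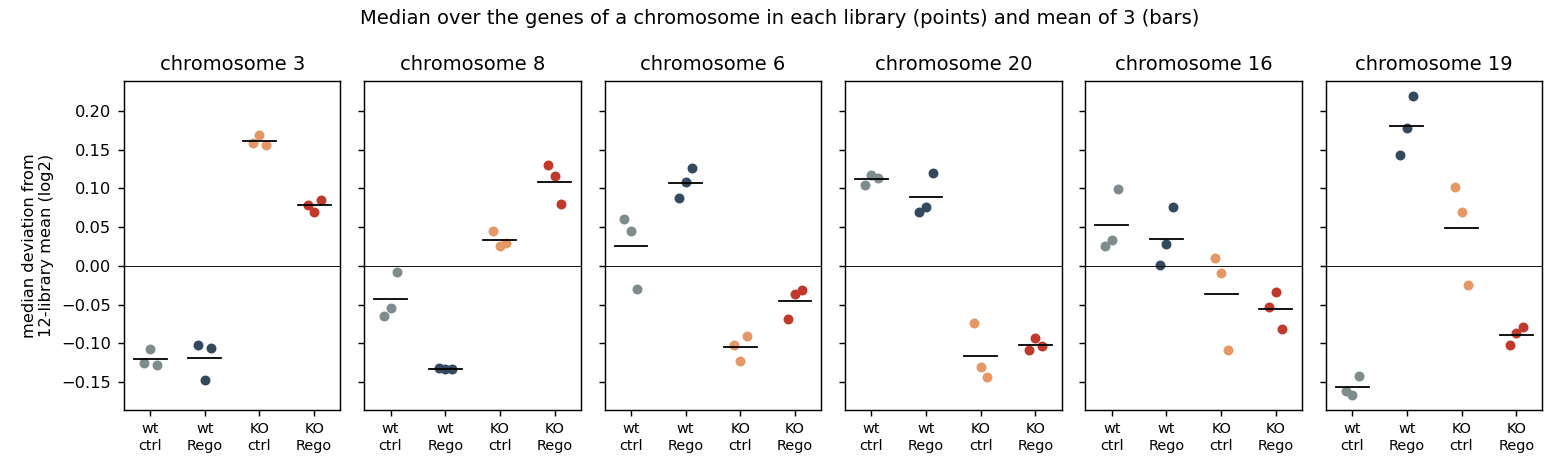
Median deviation of the genes of 6 chromosomes from their 12-library mean on the log2 scale, 1 point per library, with the mean of 3 as a bar. AxlKO libraries are above wt libraries for chromosomes 3 and 8 and below them for 6 and 20, whereas chromosome 19 is ordered oppositely in control and resistant cells.

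The size of the difference between the states was tested as an interaction. It was called for 25 of the 414 shared genes (6.04%, against 5.87% of all genes), 11 with the larger difference in resistant and 14 in control cells. Shared genes by sign can therefore rest on 1 state. Extreme examples of the same sign with unlike sizes were chosen after their values were seen. IGFBP5, a binding protein of insulin-like growth factors, had -0.12 in control and -7.57 in resistant cells. BCAT1, an aminotransferase of branched-chain amino acids, had -4.68 and -0.64. Whether either was called over the 12 libraries is not given here. By contrast, 42 shared genes had an absolute difference of at least 1 in both states.

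The shared genes were also compared by Rego state. The Rego effect over both backgrounds was called for 55 of the 414 shared genes (13.3%) and for 493 of all genes (3.16%), and it had the direction of the Axl difference in 44 of the 55 and the opposite direction in 11. Both effects were estimated on the same 12 libraries, and the calls share their estimates of spread. S100A4, S100A6, IRS2, ITGB2, CXCL5 and MMP7 were higher in AxlKO and in resistant cells, RIPK4 was lower in AxlKO and higher in resistant cells, and TOX2 was lower in both.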

How the data were processed

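RNA of the 12 cell samples was sequenced as QuantSeq 3′ mRNA libraries. According to the submitters' processing notes, reads were trimmed with cutadapt 4.0 and aligned with STAR 2.5.3a to GRCh38; the authors' DESeq2 model included the date of library preparation. Of the 8 tables, 1 over all 12 libraries carries the results, and the others serve as alternatives. Its library values are deposited as whole-number scores, read as rounded powers of 2 of variance-stabilized counts that the authors had corrected for preparation date, with a minimum of 12. The mean normalized count is a signal that the authors had averaged over the libraries of a table. The authors' fold changes and p-values were not used, and 0 columns belong to other samples.

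Log2 of the values (pseudocount 0, no filter on low values, 32 spike-in rows left out) was fitted in R 4.3.3 with limma 3.58.1 (lmFit, eBayes with trend), with terms for Axl, Rego state and replicate number. Means of the 4 groups with replicate number gave the contrasts within a state and the interaction. Genes with a Benjamini-Hochberg adjusted p below 0.05 over all 15601 genes were called. The fits were tested on simulated data. Counts per group were solved by least squares from the mean normalized counts of the 6 tables of pairs. The solution reproduced these means with a median deviation of 0.373%, which is not the error of a single group's count. Tables and figures were made in Python 3.11.15 with pandas 2.3.3 and matplotlib 3.10.9.

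Named were all TAM and ErbB receptors and TAM ligands of the table; the 12 genes per direction with the largest smaller difference of the states among genes called over all libraries and in both states without overlap; and up to 4 shared genes per list. Other names were chosen after their values were seen, and some items that the rules select are not reported here. The members and lists were chosen with earlier results of these data known. The alternatives were no replicate block, 2 other pseudocounts, a count filter, 2 rescalings, leaving out each library, group means, population means, the other tables, no trend and a threshold of 0.01. Leaving out chromosome 8 and mitochondrial genes, a block within Rego states and the centring on chromosome medians were added after seeing the data. The position of the shared genes had been planned as a description without a test, and the permutation test of library medians was added to it.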

Additional observations from a re-analysis of the deposited data

Results flagged for a closer look

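In 5 genes that the rule selects, and in 2 more that were chosen after their values were seen, the Axl difference itself changed between the states, by the interaction term in limma (adjusted by Benjamini-Hochberg). For MMP7, a secreted matrix protease, the difference was 2.11 larger in resistant cells (adjusted p = 0.0022), with 0.26 in control and 2.37 in resistant cells. FGB differed by 2.39 more in resistant cells (adjusted p = 0.014), with all AxlKO resistant libraries at 7.56 to 9.10 and all wt resistant libraries at 4.46 to 5.36. For SLC2A3 the difference was 1.31 larger in resistant cells (adjusted p = 0.028), with 0.37 in control and 1.68 in resistant cells. These 3 genes had the same sign in both states. GAS6 and ERBB4, which had opposite signs, changed by -1.30 (adjusted p = 0.02) and by -1.02 (adjusted p = 0.027) from control to resistant cells. The last 2 are IGFBP5, whose difference changed by -7.45 (adjusted p = 1.25e-08), and BCAT1, whose difference changed by 4.04 (adjusted p = 3.12e-07, limma). Both had a negative difference in either state, though that of IGFBP5 in control cells was small.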

How the results depend on the processing

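Of the named genes, the 24 with the largest shared differences kept their direction and their side of the threshold in 585 of 616 comparisons. The 31 that were lost all came from population means or from the centring on spike-in RNAs. The 24 genes had been selected on these same libraries, so that this is no separate support. The count of 414 shared genes (260 higher, 154 lower), of 78 called in both states and of 916 with a called interaction moved as follows. Without the replicate block there were 1057 (631 and 426), 235 and 1827. Centred on the spike-in RNAs there were 3126 (3108 and 18), 168 and 319, since the median of all genes moved to 0.43. With a mean normalized count of at least 50 there were 270 (156 and 114) and 48, with fewer genes tested. The average of the contrasts in a model with interaction gave 879 (517 and 362), population means 1 (0 and 1), a threshold of 0.01 gave 106 (81 and 25), the block within Rego states 270 (180 and 90) and centring on chromosome medians 257 (162 and 95); the cause of the other shifts was not tested. Leaving out 1 library gave 205 to 342 shared genes (139 to 202 higher, 64 to 140 lower), 41 to 87 in both states and 522 to 924 interactions. The 414 fell by more than 1.5 times without wt control 1 (240) or 2 (205), wt resistant 1 (270) or 2 (257), AxlKO control 2 (219) or 3 (233), or AxlKO resistant 1 (210), 2 (249) or 3 (240). ERBB3 became called without the replicate block, and ERBB3 and PROS1 with spike-in centring. Signs changed only in receptors and ligands that were not called: with spike-in centring ERBB2 was at 0.26, ERBB4 at 0.35, TYRO3 at 0.38 and EGFR at 0.42, and with chromosome centring EGFR at 0.054. With 1 library left out, EGFR ranged from -0.16 to 0.077, ERBB4 from -0.21 to 0.037, TYRO3 from -0.13 to 0.047 and GAS6 from -0.026 to 0.32. Deviations of same-numbered libraries correlated at -0.54 to 0.03 between groups, with 0 of 6 pairs within a Rego state above 0.1. Removal of a date that follows the number lowers such correlations by itself, so they cannot say whether same-numbered samples were paired. The number was not read as a pairing of samples. It was kept in the model to count the degrees of freedom spent on the authors' removal of the preparation date, taken to follow the number. The deposited values had been corrected for preparation date, and the labels do not say how the date relates to the number. Library depth is unknown, and weakly expressed genes such as CCL20, AFP and MDK lie where the scale is compressed.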

Other observations

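Some other chromosomes differed between the backgrounds mainly in 1 state or in opposite directions. The genes of chromosome 19 had a median AxlKO minus wt difference of 0.20 in control and of -0.25 in resistant cells, and 15 of its 1080 genes were shared (1.39%, against 2.65% of all genes), AXL among them. Chromosome 4 had medians of -0.25 and 0.08 and chromosome 9 of -0.27 and 0.05, with 18 of 577 (3.12%) and 9 of 600 genes (1.5%) shared. On chromosome 17, 5 of 972 genes were shared (0.514%), the lowest share of the chromosomes. Of the 35 mitochondrial genes, 6 were shared (17.1%) and higher in AxlKO cells, and the medians of the 35 had the same sign, with 0.44 in control and 0.15 in resistant cells.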
